A study of Mus musculus with 28 samples.

Results

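The genes described here carry a cell through mitosis and cytokinesis: 40 genes were chosen by symbol as members of the mitotic, kinetochore and cytokinesis machinery, of 56691 genes listed for the bulge, 47243 for the hair germ by SHERRY2 and 57010 for the hair germ by SMART-seq. All 40 were found in each of the 3 tables and all 40 passed the filters on low values there. Their levels were read in 12 RNA-seq libraries from skin of postnatal day 69 mice, of 28 samples in the series, and the 16 m6A libraries were not analysed here. Each dataset held 2 conditional knockout (cKO) mice for Alkbh5, the gene of an RNA demethylase that erases m6A, and 2 wild-type (WT) mice. The datasets covered sorted bulge cells read by SHERRY2, sorted hair germ cells read by SHERRY2 and, separately, hair germ cells read by SMART-seq, with 1 mouse per library by the titles. In hair germ SHERRY2 the mouse number used below is that of the table's column. SHERRY2 cuts hybrids of RNA and cDNA with a transposase, while SMART-seq copies whole cDNAs before they are cut. The sources used here do not give the Cre driver, the deleted exon, the sorting markers or the strain, so which skin cells had lost the gene is known only from the Alkbh5 level below. By the levels of Xist and of genes on the Y chromosome, WT mouse 2 of the bulge, cKO mouse 1 of hair germ SHERRY2 and mouse 2 of each genotype in SMART-seq were male, and the other mice female.

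Mitosis starts when the kinase Cdk1, bound to a B-type cyclin, phosphorylates its targets; kinetochores then tie chromosomes to spindle microtubules, a checkpoint holds anaphase back until every chromosome is attached, and the anaphase-promoting complex ends the arrest by marking cyclin B and securin for destruction. Bulge stem cells divide rarely while the follicle rests, and hair germ cells, which lie below them, divide before them at the start of growth. In textbook accounts many mitotic genes share a promoter layout: a cell cycle genes homology region (CHR), read by the DREAM and B-Myb complexes, near the start of transcription, and CCAAT boxes, read by NF-Y, ahead of it.

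Promoter stretches of 6 members are shown, chosen by their changes between genotypes in the bulge. Mki67 and Top2a are the genes that passed the test in the bulge, Bub1 had the highest log2 change there, Ccnb2 and Cdc20 had small changes, and Pttg1 was the one member that was lower in cKO. Each stretch runs 5′ to 3′ from 120 bases before to 20 bases after the RefSeq start in GRCm38.p6, on the minus strand in all 6 genes. Capitals mark the CHR letters TTTGAA or TTCGAA and the letters CCAAT, on either strand, so that ATTGG and TTCAAA are the same letters read from the other strand.
Mki67 promoter, chr7:135716360-135716499: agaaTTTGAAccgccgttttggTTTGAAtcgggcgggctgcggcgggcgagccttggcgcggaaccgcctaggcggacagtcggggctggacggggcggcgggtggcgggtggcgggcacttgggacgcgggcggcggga
Top2a promoter, chr11:99024170-99024309: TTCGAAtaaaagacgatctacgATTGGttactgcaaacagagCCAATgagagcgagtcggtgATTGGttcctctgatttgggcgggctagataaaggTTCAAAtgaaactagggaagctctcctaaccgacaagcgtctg
Bub1 promoter, chr2:127831840-127831979: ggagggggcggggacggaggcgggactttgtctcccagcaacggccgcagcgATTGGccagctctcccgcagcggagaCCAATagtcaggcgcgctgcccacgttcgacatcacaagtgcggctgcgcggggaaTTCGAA
Ccnb2 promoter, chr9:70421535-70421674: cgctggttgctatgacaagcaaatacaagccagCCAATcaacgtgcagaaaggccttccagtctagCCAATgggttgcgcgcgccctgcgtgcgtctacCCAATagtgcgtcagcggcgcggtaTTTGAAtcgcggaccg
Cdc20 promoter, chr4:118437324-118437463: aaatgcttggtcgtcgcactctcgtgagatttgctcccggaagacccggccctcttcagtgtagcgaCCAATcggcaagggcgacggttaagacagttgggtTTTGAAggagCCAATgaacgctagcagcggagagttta
Pttg1 promoter, chr11:43425962-43426101: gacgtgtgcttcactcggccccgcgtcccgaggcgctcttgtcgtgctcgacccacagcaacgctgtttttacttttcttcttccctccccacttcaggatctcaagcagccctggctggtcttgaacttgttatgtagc
RefSeq promoter windows, 250 bases before to 50 after the start, matched 33 of the 40 members. Ccna2, Cdc25c, Foxm1, Aurkb, Incenp, Tpx2 and Kif20a had no entry. CHR letters stood between 100 bases before and 50 after the start in 25 of 33 members (75.8%), against 9.87% of the 27025 genes with a window. CCAAT letters were in 25 members (75.8%), against 41.1% of all genes, and 17 members (51.5%) had them at 2 or more positions, against 13.3%. Both together, the CHR letters in that stretch and CCAAT in the window, were found in 23 members (69.7%), against 3.93% of all genes. TTCGAA reads the same on both strands and was counted once, and in Cdca8 the letters of the CHR and of CCAAT share 1 base. The Pttg1 window held neither, and so did those of Birc5, Mad2l1, Nuf2 and Nusap1, whose log2 changes in the bulge were 0.69, 0.87, 0.99 and 0.81. Lacking both motifs was thus not particular to Pttg1, and a match of letters is a description, not a bound site.

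Alkbh5 itself had 4.21 and 2.38 CPM (reads scaled to library size, adjusted by the trimmed mean of M values, TMM) in the bulge cKO libraries, against 107 and 96.1 in the WT libraries. In hair germ SHERRY2 it had 19.8 and 13.1 normalised counts (reads divided by the authors' size factor of the library) in the cKO libraries, against 93.0 and 47.4 in the WT libraries. In hair germ SMART-seq it had 83.5 and 106 CPM in the libraries labelled cKO, against 136 and 94.2 in WT, and these groups overlapped. The SMART-seq level therefore does not bear out the genotype labels, and every direction given for that dataset rests on the labels alone. Bulge libraries held 14676168 to 21187283 reads in genes, SMART-seq libraries 9001396 to 14416601, and hair germ SHERRY2 libraries 488648 to 2317407, with the fewest in WT mouse 2. All 10 bulge stem cell markers and all 6 hair germ markers were detected in each dataset. The 10 bulge markers summed to 26588 to 37053 CPM in the bulge libraries and 14017 to 22289 in the SMART-seq hair germ libraries, and the 6 hair germ markers to 589 to 1368 and 1817 to 3096 CPM. Krt5, Krt14 and Krt15 made up most of each bulge marker sum. Of the other bulge markers, Sox9, Lhx2, Lgr5 and Tcf7l1 had higher values in the SMART-seq hair germ libraries. Sox9 had 57.2 to 129 CPM in the bulge and 512 to 665 in SMART-seq. Itga6 was lower in SMART-seq, and the ranges of Cd34 and Nfatc1 overlapped. Krt17 made up most of each hair germ marker sum. It was higher in SMART-seq, as were Gli1, Lef1 and Runx1. The ranges of Cdh3 overlapped, at 171 to 214 CPM in the bulge and 107 to 191 in SMART-seq. These datasets were scaled separately, so the values are set side by side only.

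In bulge stem cells, 39 of the 40 mitosis genes were higher in cKO than in WT, with a median log2 change of 0.99, close to 2-fold, against -0.01 over all 15672 genes tested. Mki67 and Top2a rose, and the other 38 did not pass an adjusted p of 0.05. These 2 calls compare with 1.44% of all genes called higher by the same rule (edgeR quasi-likelihood test, Benjamini-Hochberg, 2 mice per genotype). At an unadjusted p under 0.05 there were 34 members, all higher in cKO, against 18.9% of all genes in either direction. Both cKO libraries lay above both WT libraries for 35 members, against 24.7% of all genes, and below them for 1, Pttg1, against 26.2%. In bulk samples, a change in how many cells divide and a change in mitotic RNA per cell cannot be told apart.

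The difference was larger in one of the cKO mice than in the other. Of the 40 genes, 39 were highest in cKO mouse 2, and the median member stood at 252% of the WT mean there, against 137% in cKO mouse 1. All 40 were higher in cKO mouse 2 than in cKO mouse 1, with a median log2 ratio of 0.88, against 0.00 over all genes. The summed level of the 40 genes was 1973 and 3580 CPM in the cKO libraries, against 1497 and 1341 in the WT libraries. Without cKO mouse 2, the median log2 change was 0.44, 36 genes were positive and 3 passed, against 2.07% of all genes called higher. Without cKO mouse 1 the median was 1.36 and 37 genes passed, against 4.69% of all genes. No member passed without WT mouse 1 (1.29% of all genes) or without WT mouse 2, the only male mouse of the 4 (0.422% of all genes), although the medians there were 1.09 and 0.88. The number of members called also depended on the method: 26 with DESeq2 (2.11% of all genes), 33 without a filter on low counts (2.7%), 5 with RLE scaling (1.66%) and 0 with mouse number as a block (1.31%).

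**Figure D1:**
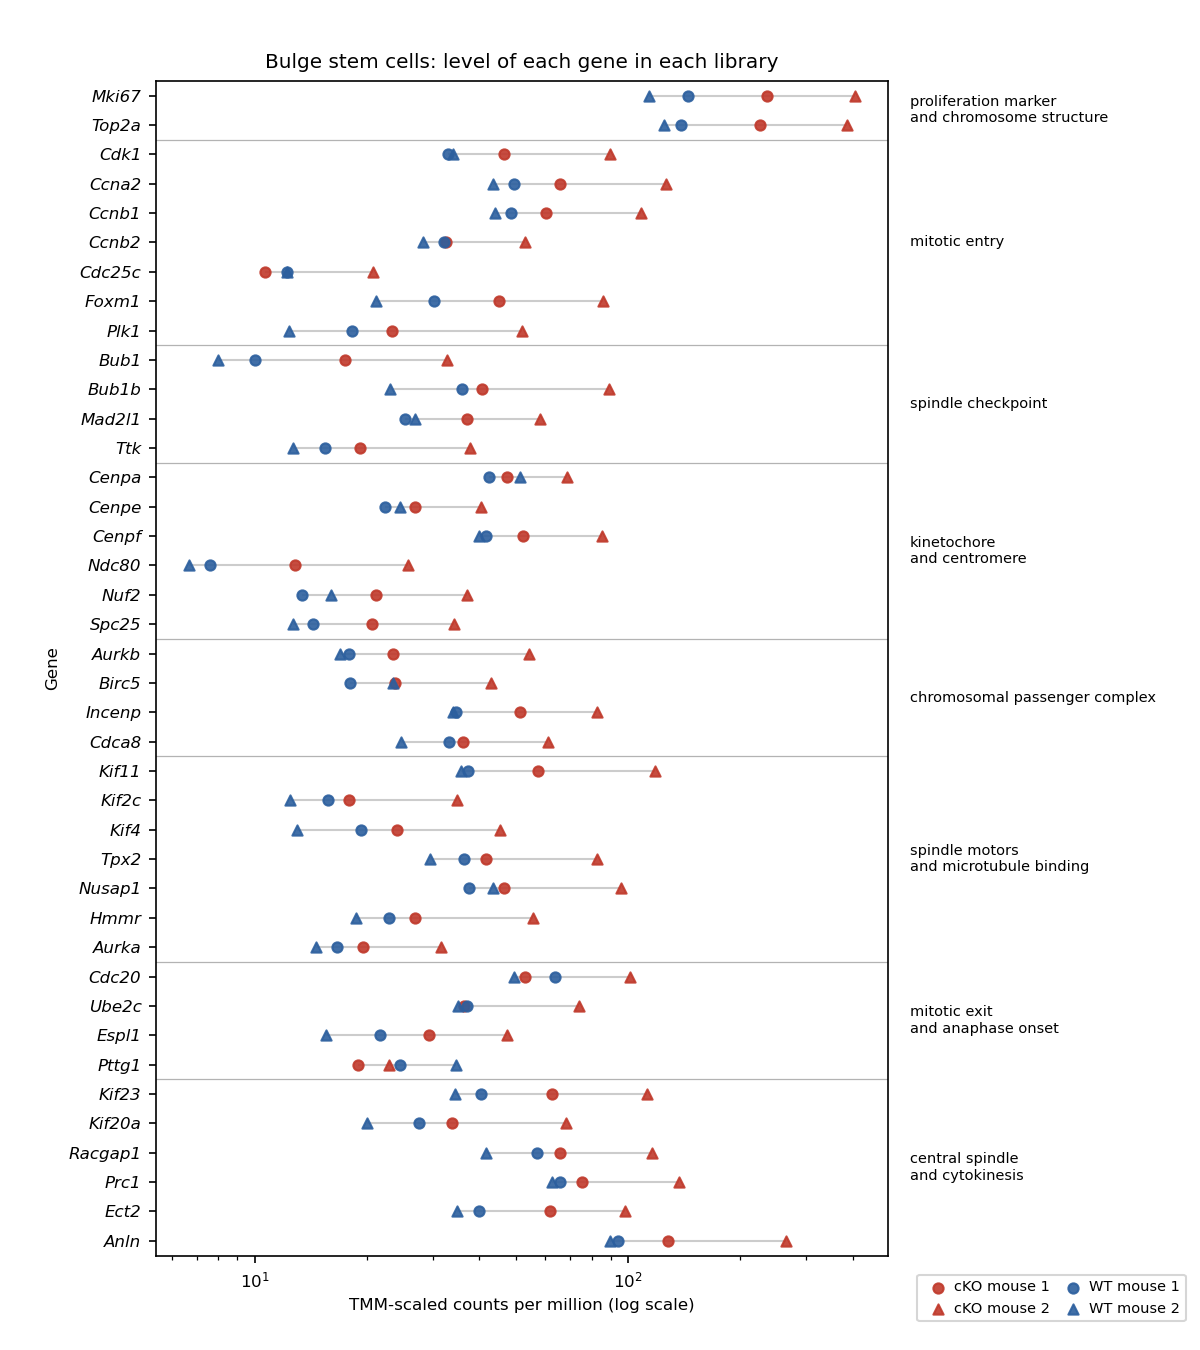
Level of each of the 40 genes in the 4 bulge libraries, in TMM-scaled CPM on a log scale, grouped by role; red marks are cKO, blue marks WT, circles mouse 1 and triangles mouse 2, and the grey line spans the 4 values. In 35 genes both red marks lie right of both blue marks, cKO mouse 2 is the rightmost mark in 39, and Pttg1 runs the other way.

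Mki67, whose protein coats mitotic chromosomes and is the standard marker of dividing cells, and Top2a, the topoisomerase that untangles sister chromatids, were the called genes. Mki67 (ENSMUSG00000031004, chromosome 7, 135291513 to 135318090 on the minus strand as the bulge table gives it, with no build named) had 235 and 405 CPM in the cKO libraries, against 145 and 114 in the WT libraries, from 3798, 8508, 2837 and 1603 reads. Its means were 319.8 ± 119.9 CPM in cKO and 129.5 ± 21.9 CPM in WT (SD, n = 2 each; log2 change 1.30, SE 0.26, adjusted p = 0.0465, edgeR). Both cKO mice exceeded both WT mice, and cKO mouse 2 had the top value. Top2a (ENSMUSG00000020914, chromosome 11, 98883769 to 98915015, minus strand) had 226 and 385 CPM in the cKO libraries, against 139 and 125 in the WT libraries. Its means were 305 ± 113 CPM in cKO and 132 ± 9.63 CPM in WT (SD, n = 2 each; log2 change 1.21, SE 0.25, adjusted p = 0.0472, edgeR), with the same order of libraries. Mki67 overlaps Gm45240 on the opposite strand, and Top2a overlaps Gm23451 on its own strand. Across the 40 members, 21 overlap another gene in the bulge table, 8 on the same strand and 16 on the opposite one, and whether counting used strand is not given in the sources used here.

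All 7 genes of mitotic entry were positive in the bulge, with a median log2 change of 1.02 and a range of 0.37 to 1.34, and none passed. Foxm1, a transcription factor of the G2 and M phase program, had 45.2 and 85.6 CPM in the cKO libraries, against 30.3 and 21.1 in the WT libraries (log2 change 1.34, SE 0.31, adjusted p = 0.0674, edgeR). Cdk1, the kinase that starts mitosis, had 46.6 and 89.5 CPM in the cKO libraries, against 32.9 and 34.1 in the WT libraries. Ccnb1, its cyclin partner, had 60.4 and 108 CPM in the cKO libraries, against 48.5 and 44.0 in the WT libraries. In these 3 genes the groups were apart, and WT values were closer to each other than cKO values were. Plk1, a kinase that acts at centrosomes, kinetochores and the cleavage site, had 23.3 and 52.0 CPM in the cKO libraries, against 18.2 and 12.4 in the WT libraries (log2 change 1.30). Cdc25c, a phosphatase that switches Cdk1 on, had the smallest change of the group, with 10.6 and 20.8 CPM in the cKO libraries, against 12.2 and 12.2 in the WT libraries (log2 change 0.37). There cKO mouse 1 lay below both WT mice and cKO mouse 2 above them. Ccnb2, the second B-type cyclin of the set, was at 0.50, with cKO mouse 1 just above the higher WT library.

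Spindle checkpoint genes, whose products hold anaphase until attachment is complete, were positive in 4 of 4 cases, with a median of 1.07. Bub1, a checkpoint kinase at the kinetochore, had 17.5 and 32.7 CPM in the cKO libraries, against 10.02 and 7.97 in the WT libraries, the highest log2 change of the 40 members (log2 change 1.48, SE 0.32, adjusted p = 0.0569, edgeR). It rested on 283 and 687 reads in cKO, against 196 and 112 in WT. Mad2l1, which binds and restrains Cdc20, had 37.1 and 58.1 CPM in the cKO libraries, against 25.4 and 26.955 in the WT libraries (log2 change 0.87), the lowest of the 4. Both genes had groups that did not overlap, and so did Bub1b and Ttk at 1.13 and 1.02.

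Kinetochore and centromere genes were positive in 6 of 6 cases, with a median of 0.87, and they spread more widely than the checkpoint genes. Ndc80, the core of the complex that grips microtubules, had 12.8 and 25.8 CPM in the cKO libraries, against 7.62 and 6.69 in the WT libraries (log2 change 1.43, SE 0.35, adjusted p = 0.0762, edgeR). Its partners in that complex, Nuf2 and Spc25, were at 0.99 and 1.02. Cenpa, the histone H3 variant that marks centromeres, had 47.3 and 68.4 CPM in the cKO libraries, against 42.5 and 51.5 in the WT libraries (log2 change 0.30), the smallest of the group. WT mouse 2 lay above cKO mouse 1 for Cenpa, so the groups overlapped. The large kinetochore proteins Cenpe, a motor, and Cenpf were at 0.53 and 0.76.

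The 4 genes of the chromosomal passenger complex, which corrects faulty attachments and later directs cytokinesis, were all positive with a median of 0.86. Aurkb, its kinase, had 23.5 and 54.3 CPM in the cKO libraries, against 17.9 and 16.9 in the WT libraries (log2 change 1.16). Incenp, its scaffold, had 51.4 and 82.6 CPM in the cKO libraries, against 34.7 and 34.1 in the WT libraries (log2 change 0.96, SE 0.23, adjusted p = 0.0723, edgeR). The WT libraries were nearly equal for both genes, and the cKO libraries differed from each other more than the WT libraries did. Birc5 (survivin) had 23.7 and 42.8 CPM in the cKO libraries, against 18.0 and 23.5 in the WT libraries (log2 change 0.69), with cKO mouse 1 only slightly above WT mouse 2, and Cdca8 (borealin) was at 0.75.

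Spindle motors and microtubule-binding genes were positive in 7 of 7 cases, with a median of 0.92 and a range of 0.71 to 1.27. Kif11, the motor that pushes spindle poles apart, had 57.4 and 118 CPM in the cKO libraries, against 37.2 and 35.6 in the WT libraries (log2 change 1.27, SE 0.31, adjusted p = 0.0729, edgeR). Aurka, a centrosomal kinase that builds the spindle with Tpx2, had 19.5 and 31.6 CPM in the cKO libraries, against 16.6 and 14.6 in the WT libraries (log2 change 0.71), the lowest of the group. All 7 had both cKO libraries above both WT libraries, with Kif4 at 1.10, Hmmr at 0.99, Tpx2 at 0.92, Kif2c at 0.90 and Nusap1 at 0.81.

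Genes of mitotic exit and anaphase onset differed from one another the most. Espl1, the separase that cuts cohesin, had 29.3 and 47.4 CPM in the cKO libraries, against 21.6 and 15.6 in the WT libraries (log2 change 1.04, SE 0.27, adjusted p = 0.0906, edgeR). Cdc20, which activates the anaphase-promoting complex, had 52.9 and 101 CPM in the cKO libraries, against 63.8 and 49.4 in the WT libraries (log2 change 0.44). Pttg1, the securin that holds separase inactive, had 18.9 and 22.9 CPM in the cKO libraries, against 24.6 and 34.7 in the WT libraries (log2 change -0.50, adjusted p = 0.288, edgeR; it is described because it was the single negative member). Separase and its inhibitor thus stood on opposite sides of 0, with both groups apart for each gene. For Cdc20, and for Ube2c, the ubiquitin-conjugating enzyme of the same complex (log2 change 0.61), cKO mouse 1 lay between the WT mice and only cKO mouse 2 stood above them.

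Central spindle and cytokinesis genes were positive in 6 of 6 cases, with a median of 1.10. Ect2, the exchange factor that switches on RhoA at the cleavage site, had 61.6 and 98.3 CPM in the cKO libraries, against 39.9 and 34.8 in the WT libraries (log2 change 1.10, SE 0.23, adjusted p = 0.0519, edgeR). Kif23, the motor of the centralspindlin complex, had 62.6 and 112 CPM in the cKO libraries, against 40.4 and 34.4 in the WT libraries (log2 change 1.23, SE 0.27, adjusted p = 0.0575, edgeR). Prc1, which bundles central spindle microtubules, had 75.3 and 137 CPM in the cKO libraries, against 65.6 and 62.7 in the WT libraries (log2 change 0.73). Groups were apart for all 3, and also for Anln, Kif20a and Racgap1, at 1.09, 1.10 and 0.88.

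Per kilobase of exonic length, the genotypes shared the highest and the lowest member. Cdc20 had the highest mean in both, 41.2 CPM per kb in cKO and 30.3 in WT, and Ndc80 the lowest, 2.98 in cKO and 1.10 in WT. The next ranks differed: Top2a and Mki67 followed Cdc20 in cKO, and Ccnb2 and Pttg1 followed it in WT. Pttg1 ranked 23 of 40 in cKO and 3 in WT. Levels of pseudogenes named after members were small beside them: Ccnb1-ps had 3 and 32 reads in the cKO libraries and 4 and 7 in WT, Ccnb2-ps 18 and 20 in cKO and 17 and 9 in WT, and Kif4-ps 0 reads in all 4.

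Other lists of the division machinery showed which neighbours of the 40 genes shared their direction in the bulge. Of 36 other kinetochore and centromere genes, 36 were positive with a median of 0.77, and Kntc1 and Cenph rose. Kntc1, which brings dynein to kinetochores, had 33.7 and 55.6 CPM in the cKO libraries, against 14.8 and 9.74 in the WT libraries (log2 change 1.86, adjusted p = 0.0235, edgeR). Cenph, a subunit of the inner kinetochore, had 12.3 and 17.8 CPM in the cKO libraries, against 4.86 and 5.90 in the WT libraries (log2 change 1.49, adjusted p = 0.0475, edgeR). For both, each cKO library exceeded the sum of the WT libraries, and the lowest gene of the list was Mis18a at 0.06. Of 24 other spindle genes, 23 were positive with a median of 0.73, and the kinesin Kif15 and the microtubule regulator Psrc1 rose. Psrc1, the higher of them, had 61.6 and 98.4 CPM in the cKO libraries, against 24.1 and 25.5 in the WT libraries (log2 change 1.69, adjusted p = 0.0149, edgeR). Kif15 had 32.0 and 51.3 CPM in the cKO libraries, against 14.5 and 15.1 in the WT libraries (log2 change 1.49, adjusted p = 0.0255, edgeR), and Numa1 was the lowest at -0.04.

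Among 15 other mitotic kinases and entry genes, 14 were positive, the median was 0.52, and 1 rose: Ccnf, the F-box cyclin (log2 change 1.30, adjusted p = 0.0359, edgeR). Haspin, the histone H3 kinase, had the highest value at 1.41, and Wee1, which keeps Cdk1 inactive, the lowest at -0.76. Wee1 had 131 and 128 CPM in the cKO libraries, against 286 and 152 in the WT libraries, and neither of these 2 genes passed. Of 19 condensin and cohesin genes, 18 were positive with a median of 0.38. The condensin II subunit Ncapg2 rose (log2 change 1.11, adjusted p = 0.0465, edgeR), and the list ran from Stag2 at -0.19 to Esco2, the cohesin acetyltransferase of S phase, at 1.61. Of 10 other cytokinesis genes, 9 were positive with a median of 0.81, and the citron kinase gene Cit (log2 change 1.45, adjusted p = 0.0260, edgeR) and Kif20b (log2 change 1.35, adjusted p = 0.0497, edgeR) rose, while Rhoa was at -0.12.

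The anaphase-promoting complex and the DREAM and MuvB regulators had the lowest medians of the 8 lists in the bulge. Of 17 genes of the complex and its regulators, 9 were positive, the median was 0.02 and none passed, with values from -0.56 for the subunit Anapc13 to 0.77 for the inhibitor Fbxo5. Of 12 DREAM and MuvB regulators, 11 were positive with a median of 0.13 and none passed. Mybl2, which encodes B-Myb, was the highest at 1.56, with 12.8 and 18.9 CPM in the cKO libraries, against 6.54 and 4.13 in the WT libraries (log2 change 1.56, adjusted p = 0.0547, edgeR), and the MuvB subunit Lin37 the lowest at -0.16. For comparison, 20 of 20 DNA replication genes were positive with a median of 1.02, and Rrm2, Rrm1 and Chaf1b rose, with the helicase loader Cdc6 the highest at 1.69 and Gins2 the lowest at 0.26. Replication genes thus had a median near that of the mitosis genes.

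**Figure D2:**
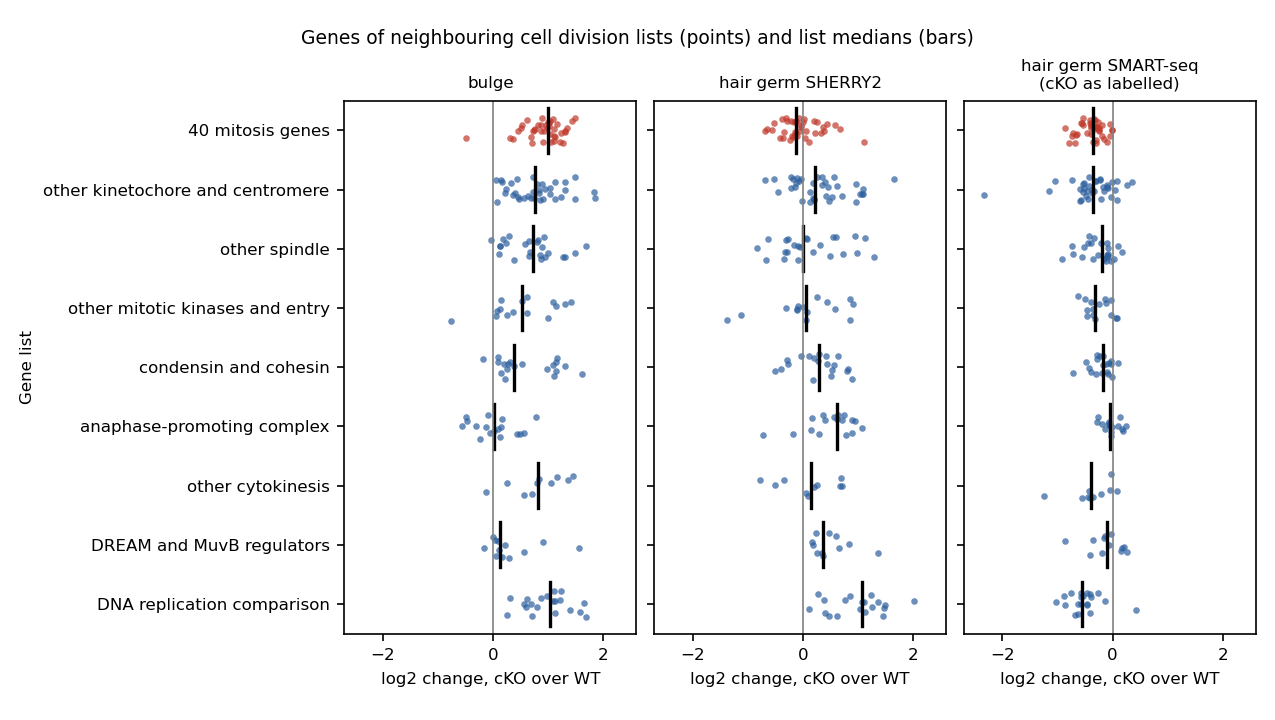
Log2 change, cKO over WT, of each gene of the 40 mitosis genes and of 8 neighbouring lists (points) with the list median (black bar), in the 3 datasets. In the bulge the medians run from 0.02 for the anaphase-promoting complex to 1.02 for DNA replication; in hair germ SHERRY2 DNA replication is at 1.07 and the mitosis genes at -0.12.

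Markers of other cells also moved in the bulge libraries. The summed level of 10 immune markers was 98.96 and 55.1 CPM in the cKO libraries, against 282 and 216 in WT. Of the 10, 3 were called lower, against 251 of all 15672 genes tested. Cd68 did not go this way, with 2.35 and 3.99 CPM in cKO, against 1.43 and 2.70 in WT. The 6 sebaceous gland markers summed to 18.6 and 20.8 CPM in cKO, against 7.92 and 7.18 in WT, with 1 called higher, Elovl3, and the 6 differentiated epidermis markers to 5495 and 5155 in cKO, against 5608 and 5893 in WT, with 1 called lower, Krtdap. The 6 hair germ markers summed to 866 and 589 CPM in cKO, against 1072 and 1368 in WT, with none called. Krt17 made up most of each of these sums, with 543 and 320 CPM in cKO, against 718 and 1049 in WT. Lef1 and Runx1 were also lower in both cKO libraries. Gli1 and Lgr5 were highest in cKO mouse 1, and the groups of Cdh3 overlapped. The 10 bulge markers summed to 26588 and 30271 CPM in cKO, against 37053 and 34063 in WT, with none called, and Krt5, Krt14 and Krt15 made up most of each sum. Among the less abundant bulge markers, Cd34 had 366 and 136 CPM in cKO, against 247 and 241 in WT, and Lhx2 had 114 and 43.8 CPM in cKO, against 96.8 and 84.2 in WT. Lgr5 had 71.7 and 30.01 CPM in cKO, against 63.7 and 68.6 in WT, and Sox9 had 98.6 and 57.2 CPM in cKO, against 90.99 and 129 in WT. All 4 were lowest in cKO mouse 2, the library in which 39 of the mitosis genes were highest. Nfatc1 and Tcf7l1 were lowest there too. The rest of the bulge markers did not share this: Itga6 and Krt14 were highest in cKO mouse 2, and Krt5 and Krt15 were lowest in cKO mouse 1. The part of these differences in the mitosis result was not tested.

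In hair germ stem cells by SHERRY2, the 40 genes did not move one way between genotypes. Of them, 14 were positive and 26 negative, the median log2 change was -0.12, against 0.06 over the 38953 genes tested, and the range ran from -0.68 to 1.11. No member passed, and 0 had an unadjusted p under 0.05 in limma (0.0077% of all genes passed and 4.62% had such a p). With edgeR on the recovered reads none passed either and 1 had an unadjusted p under 0.05, against 4.93% of all genes tested that way. Both cKO libraries were above both WT libraries for 1 member, Spc25, and below them for 2, Cdc25c and Ect2, against 16.4% of all genes in each direction. The sign of the median differed between methods: it was -0.31 with edgeR on recovered reads and 0.06 with DESeq2 on them. The 4 libraries held 9 to 246 and 25 to 799 reads per member in cKO, and 10 to 370 and 5 to 265 in WT, and the median SE of a member's log2 change was 0.64.

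On the scale of the authors' size factors, the cKO libraries of this dataset lay on opposite sides of the WT libraries. Of the 40 genes, 35 were lowest in the male cKO mouse 1 and 34 were highest in cKO mouse 2. The median member stood at 58.5% of the WT mean in cKO mouse 1 and at 144% in cKO mouse 2. The summed level was 1465 and 4403 normalised counts in cKO, against 2481 and 2966 in WT. The size factors were 1.36 and 1.22 in cKO and 1.02 and 0.632 in WT, and they did not follow the reads. Those were 1526070 and 2317407 in cKO and 1513001 and 488648 in WT. The order of libraries may therefore depend on this scale, and it was not tested on another. Without cKO mouse 1 the median log2 change was 0.54, and without cKO mouse 2 it was -0.70. Sex and mouse cannot be told apart here, since the cKO pair held 1 male and 1 female mouse.

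Single genes showed the same order of libraries on the scale of the authors' size factors. Mki67 had 180.4 and 652 normalised counts in the cKO libraries, against 362 and 419 in the WT libraries (log2 change -0.18). Top2a had 138 and 494 normalised counts in the cKO libraries, against 247 and 304 in the WT libraries (log2 change -0.07). Cdk1 had 34.5 and 171 normalised counts in the cKO libraries, against 49.9 and 45.9 in the WT libraries (log2 change 0.68). In each of these genes cKO mouse 1 was the lowest and cKO mouse 2 the highest library. Aurkb had 11.7 and 53.9 normalised counts in the cKO libraries, against 19.6 and 18.97 in the WT libraries (log2 change 0.38) and Plk1 had 14.7 and 57.2 normalised counts in the cKO libraries, against 15.7 and 31.6 in the WT libraries (log2 change 0.37). Ccnb1 had 16.9 and 53.9 normalised counts in the cKO libraries, against 49.9 and 41.1 in the WT libraries (log2 change -0.56). In cKO mouse 2, Ccnb1 was thus near its WT level, while its partner Cdk1 was well above it. Bub1 had 11.0 and 25.3 normalised counts in the cKO libraries, against 18.6 and 25.3 in the WT libraries, and Kif23 had 44.7 and 111 normalised counts in the cKO libraries, against 70.5 and 83.8 in the WT libraries. For Bub1, cKO mouse 2 and WT mouse 2 were nearly equal. Ect2, which came closest to the threshold in the bulge among the members that missed it, had 21.997 and 21.2 normalised counts in the cKO libraries, against 24.5 and 50.6 in the WT libraries, both cKO libraries below both WT libraries. Spc25, of the Ndc80 complex, had 14.7 and 27.8 normalised counts in the cKO libraries, against 9.78 and 7.91 in the WT libraries, the reverse. It rested on 20 and 34 reads in cKO, against 10 and 5 in WT.

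Ube2c spanned the widest range of the 40 in this dataset, with 22.7 and 204 normalised counts in the cKO libraries, against 59.7 and 117 in the WT libraries, an 8.98-fold span from lowest to highest. By role, the 4 chromosomal passenger genes were all positive with a median of 0.20, and the 6 central spindle and cytokinesis genes were all negative with a median of -0.26. Neither group held a gene past the threshold. Of the DNA replication genes, 19 of 19 tested were positive with a median of 1.07, 4 had an unadjusted p under 0.05, and none passed.

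Marker sums also differed between these libraries. Differentiated epidermis markers summed to 2879 and 8158 normalised counts in the cKO libraries, against 19865 and 1749 in WT, and the 10 bulge markers to 16181 and 44808 in cKO, against 32500 and 17155 in WT. The bulge marker sum, like most members, was lowest in cKO mouse 1 and highest in cKO mouse 2, and the epidermis sum was not. Krt5, Krt14 and Krt15 made up most of the bulge sum and had its order, as did Nfatc1. Lhx2, Lgr5 and Tcf7l1 were instead highest in cKO mouse 1, and Cd34, Sox9 and Itga6 had other orders. Lhx2 had 580 and 45.7 normalised counts in cKO, against 53.8 and 52.2 in WT. Of the 6 hair germ markers, Cdh3, Lgr5, Gli1, Lef1 and Runx1 were highest in cKO mouse 1, and Krt17 in WT mouse 1. Gli1 had 121 and 17.1 normalised counts in cKO, against 18.6 and 22.1 in WT. Lef1 had 79.9 and 13.1 in cKO, against 18.6 and 18.97 in WT. The library in which most members were lowest thus differed from the others in these markers. Olfactory and vomeronasal receptor genes, best known from sensory neurons of the nose, had reads in 471 and 442 of 538 cases in cKO and in 444 and 414 in WT. Their median was 1.47 and 1.04 normalised counts per kb in cKO and 1.22 and 1.56 in WT, against a median of 5.75 and 14.2 in cKO and 8.57 and 9.87 in WT for the mitosis genes. Per kb, 39 of 40 members were above the receptor median in cKO mouse 1, the exception being Kif11 at 0.884 from 9 reads, and all 40 were above it in the other 3 libraries. The part of these features in the values was not tested.

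**Figure D3:**
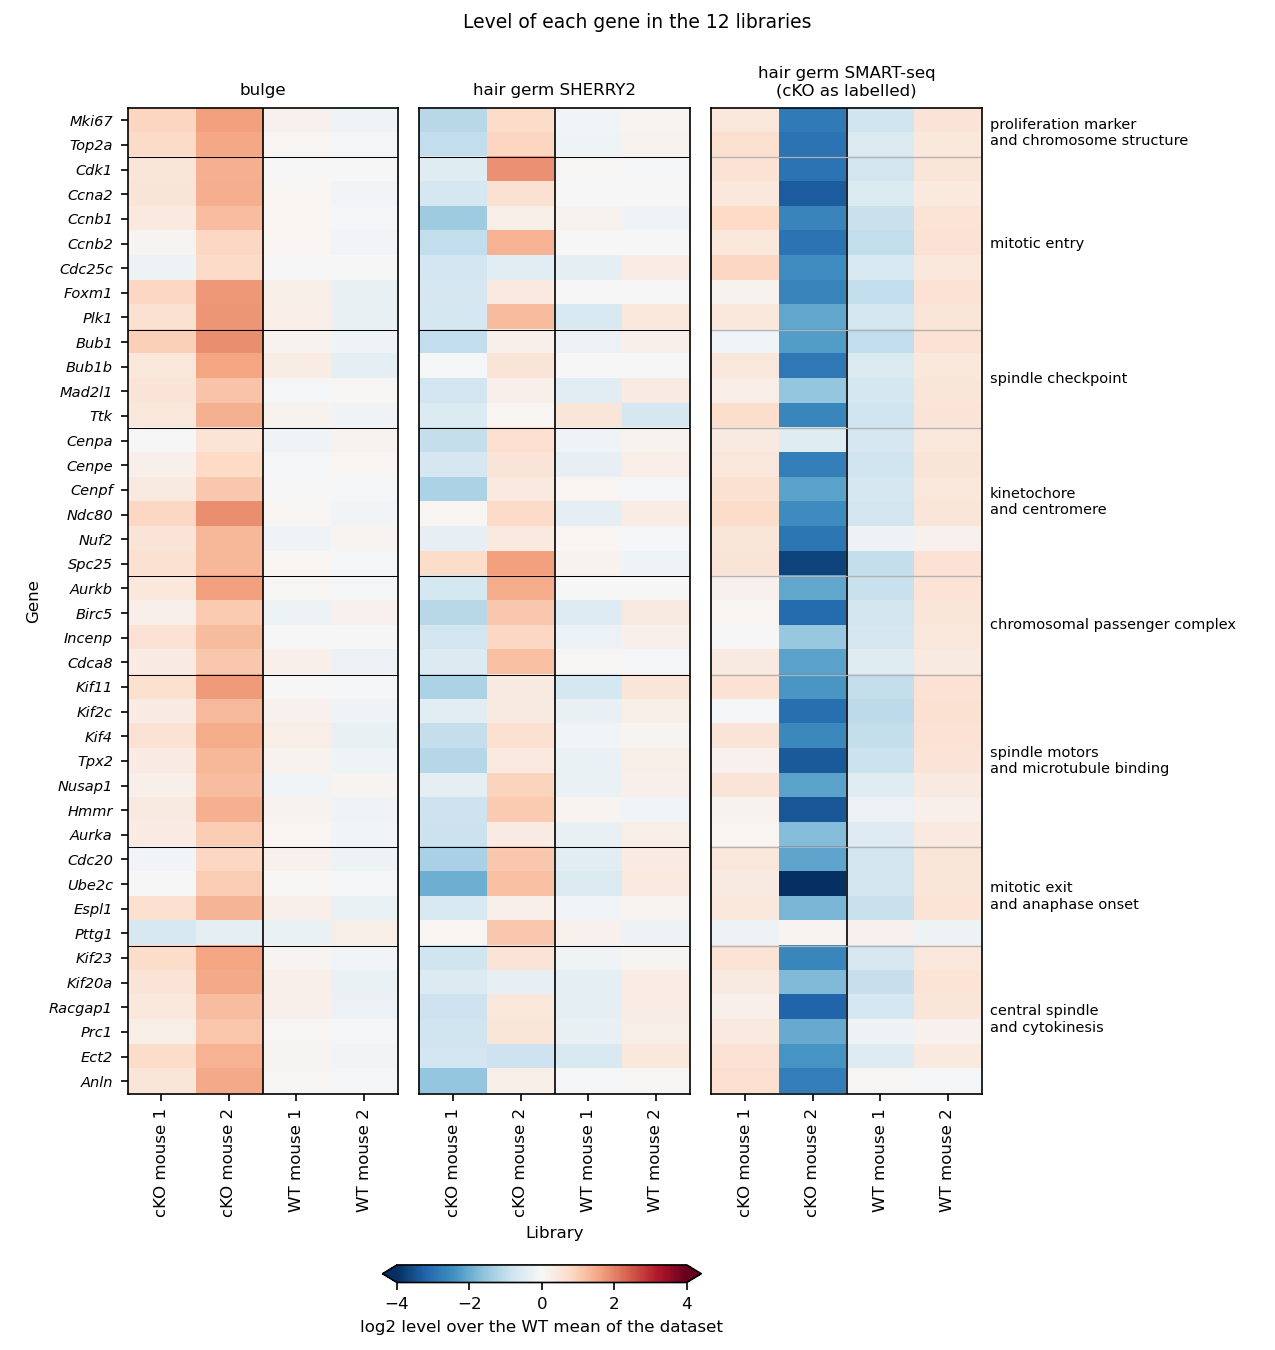
Log2 level of each gene over the WT mean of its dataset, in the 12 libraries (columns: cKO mouse 1 and 2, then WT mouse 1 and 2, for bulge, hair germ SHERRY2 and hair germ SMART-seq); red is above and blue below the WT mean. In the bulge cKO mouse 2 is the highest in 39 genes, and in SMART-seq labelled cKO mouse 2 is the lowest in 38. In hair germ SHERRY2, on the scale of the authors' size factors, cKO mouse 1 is the lowest in 35 and cKO mouse 2 the highest in 34.

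In hair germ SMART-seq, all 40 genes had a negative log2 change and none passed, with a median of -0.35, against -0.02 over 17547 genes. No gene at all was called (0%), 1.02% of all genes had an unadjusted p under 0.05, and no member did. The groups overlapped for all 40 members, whereas 11.8% of all genes had both labelled cKO libraries above both WT libraries and 12.5% both below. The shared sign depended on single libraries. In labelled cKO mouse 2, 38 of 40 members were at their lowest, with a median of 16.5% of the WT mean. Labelled cKO mouse 1 stood at 136% and the WT mice at 60.6% and 139%. The summed level was 1531 and 214 CPM in the libraries labelled cKO, against 712 and 1533 in WT.

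Within each sex the libraries differed in opposite directions. Between the female mice, labelled cKO mouse 1 was above WT mouse 1 for 39 of 40 members, with a median log2 ratio of 1.09. Between the male mice, labelled cKO mouse 2 was below WT mouse 2 for 39 of 40 members, with a median of -3.03. The WT mice also differed from each other, with WT mouse 2 above WT mouse 1 for 38 members and a median log2 ratio of 1.20, against 0.00 over all genes. Without labelled cKO mouse 2 the median log2 change was 0.44 and 37 members were positive, and without WT mouse 2 it was 0.34 with 34 positive. Without labelled cKO mouse 1 it was -2.57, with 30 members at an unadjusted p under 0.05, against 3.08% of all genes, and none called.

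Mki67 had 417 and 43.3 CPM in the labelled cKO libraries, against 178 and 436 in the WT libraries (log2 change -0.41). Top2a had 182 and 15.3 CPM in the labelled cKO libraries, against 78.0 and 157 in the WT libraries (log2 change -0.25). For both, labelled cKO mouse 1 and WT mouse 2 were high, WT mouse 1 was lower and labelled cKO mouse 2 lowest. Cdk1 had 24.5 and 2.12 CPM in the labelled cKO libraries, against 9.88 and 22.9 in the WT libraries, from 335, 19, 138 and 268 reads. Ccnb1 had 29.3 and 2.68 CPM in the labelled cKO libraries, against 9.02 and 24.5 in the WT libraries. Plk1 had 12.9 and 2.24 CPM in the labelled cKO libraries, against 5.80 and 13.1 in the WT libraries. The entry genes thus followed Mki67, and the values below repeat the order in later phases. Bub1 had 11.2 and 2.57 CPM in the labelled cKO libraries, against 6.01 and 18.0 in the WT libraries. Aurkb had 12.9 and 2.68 CPM in the labelled cKO libraries, against 6.16 and 16.6 in the WT libraries. Kif23 had 32.0 and 3.58 CPM in the labelled cKO libraries, against 14.2 and 29.8 in the WT libraries. In all of these genes labelled cKO mouse 2 was the lowest library.

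Members differed in the span from their highest to their lowest library, which was labelled cKO mouse 2 in 38 of 40. Reads per member were few in that library, from 4 upward with a median of 26.5. The ratio of the highest to the lowest library was 37.5 for Ube2c, 19.1 for Spc25, 14.8 for Tpx2 and 13.3 for Ccna2. It was 4.31 for Aurka, 4.01 for Mad2l1, 3.89 for Incenp and 2.18 for Cenpa, whose lowest library was WT mouse 1. Ube2c had 15.4 and 0.447 CPM in the labelled cKO libraries, against 7.16 and 16.8 in the WT libraries, with 4 reads in labelled cKO mouse 2. Cenpa, also the kinetochore gene with the smallest change in the bulge, had 32.7 and 18.2 CPM in the labelled cKO libraries, against 16.1 and 35.1 in the WT libraries, so that labelled cKO mouse 2 lay between WT mouse 1 and the other libraries. Pttg1 had 11.2 and 13.6 CPM in the labelled cKO libraries, against 14.5 and 11.0 in the WT libraries, a ratio of 1.32, with labelled cKO mouse 2 second to WT mouse 1. Pttg1 was thus the member that did not follow the others in the bulge or in this dataset.

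Markers of other cells differed between these libraries as well. The summed level of 6 melanocyte markers was 76.2 and 266 CPM in the libraries labelled cKO, against 156 and 167 in WT, and Mitf made up most of the sum in WT mouse 1. The pigment enzyme gene Dct had 15.6 and 94.03 CPM in the libraries labelled cKO, against 16.5 and 69.6 in WT, high in both male mice, and Tyrp1 and Pmel had the same order. The summed level of 10 immune markers was 43.9 and 139 CPM in the libraries labelled cKO, against 45.6 and 29.2 in WT. Cd74, H2-Aa and H2-Ab1 made up most of the sum in labelled cKO mouse 2. Cd3e, Trdc and Cd68 went the other way and were lowest in that library. The 10 bulge markers summed to 14017 and 22289 CPM in the libraries labelled cKO, against 18322 and 18712 in WT, and the 6 hair germ markers to 2975 and 2682, against 1817 and 3096. Replication genes went the same way as the mitosis genes, with 1 of 20 positive and a median of -0.55. The part of these differences in the mitosis values was not tested.

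**Figure D4:**
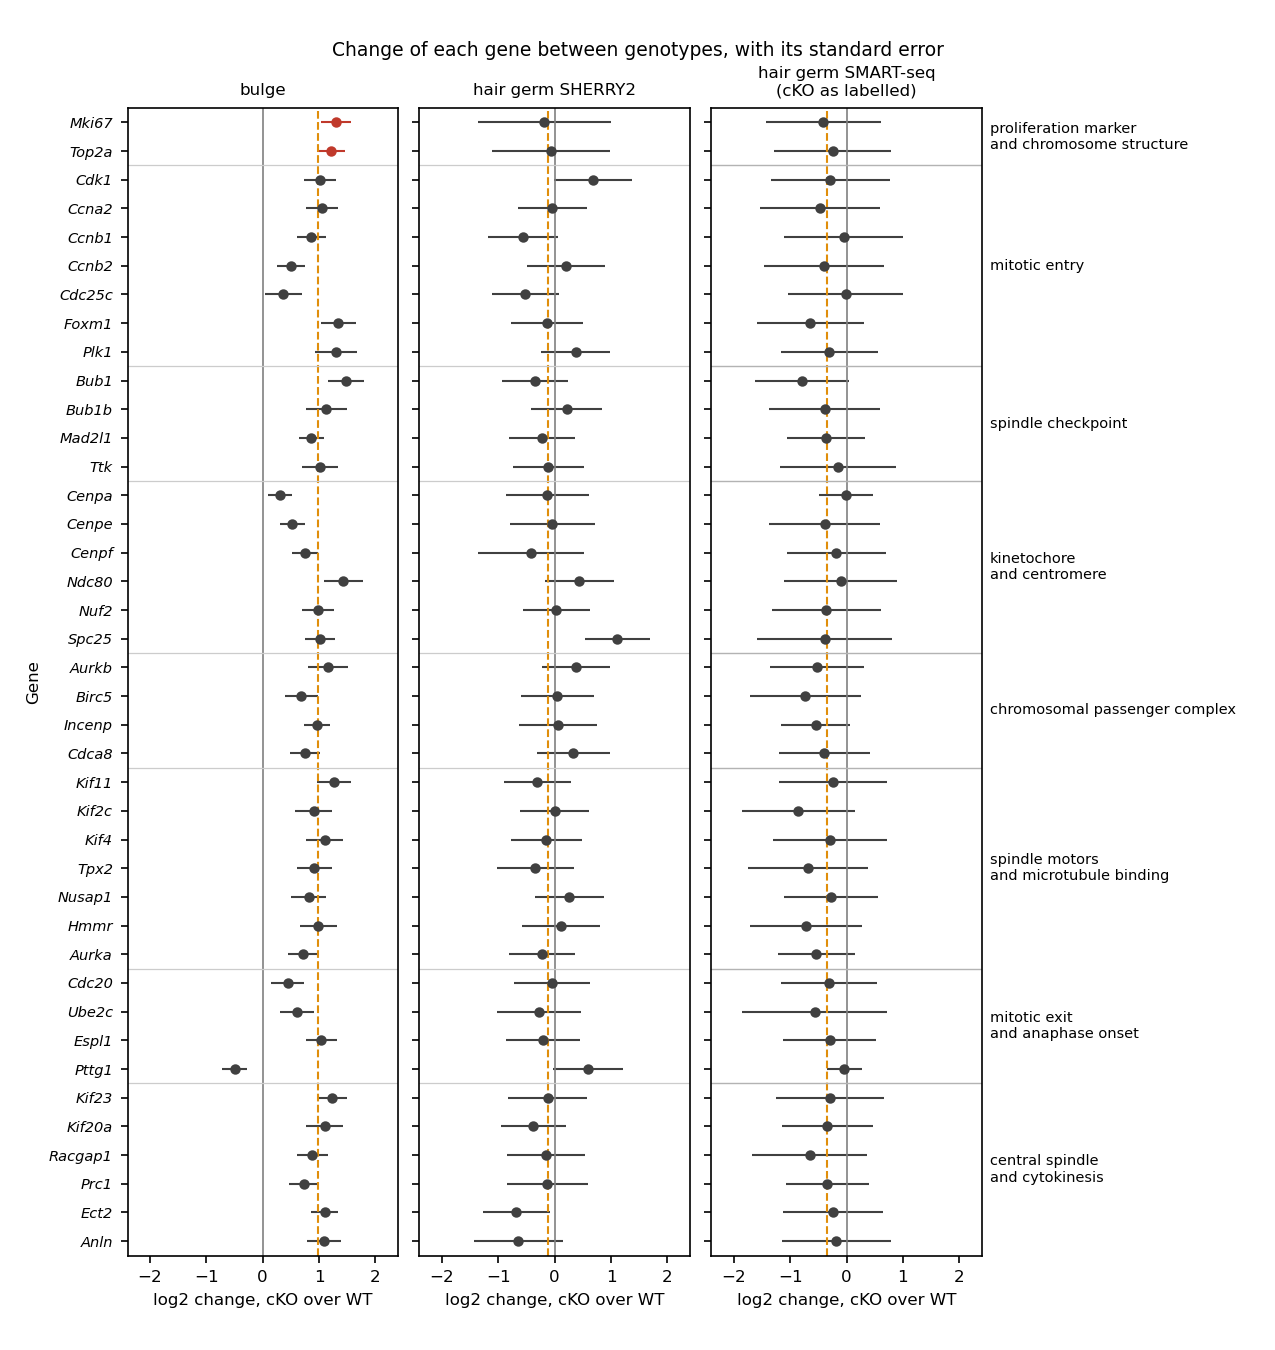
Log2 change, cKO over WT, of each of the 40 genes with its standard error, in the bulge (edgeR), hair germ SHERRY2 (limma) and hair germ SMART-seq (edgeR, genotype as labelled); red marks passed an adjusted p of 0.05 and the dashed line is the median of the 40. Medians are 0.99, -0.12 (0.06 with DESeq2 on recovered reads) and -0.35, and the standard errors of the hair germ values are wider, with medians of 0.64 and 0.97, against 0.28 in the bulge.

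Whether the genotype difference itself differed between datasets was tested with a dataset-by-genotype term in joint edgeR fits. Between the bulge and hair germ SHERRY2, 39 of 40 members had the larger log2 change in the bulge, with a median difference of 1.35, against 0.20 over all genes, and none passed, while 0.119% of all genes did. At an unadjusted p under 0.05 there were 26 members, against 7.47% of all genes. The lowest p was that of Ect2 (adjusted p = 0.171, edgeR), followed by Foxm1 (adjusted p = 0.246, edgeR). Leaving out single libraries gave between 0 and 19 members past the threshold, with 19 without WT mouse 1 of the hair germ (2.46% of all genes), 8 without cKO mouse 1 of the bulge (0.5%) and 4 without cKO mouse 2 of the hair germ (0.418%). Between the bulge and SMART-seq, the median difference was 1.38 with 0 members past the threshold or at an unadjusted p under 0.05, against 0.0413% and 6.66% of all genes. Between the hair germ datasets the median was 0.30, with 0 members past the threshold or at an unadjusted p under 0.05, against 0% and 3.96% of all genes. The higher levels in cKO were therefore not shown to be particular to the bulge.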

How the data were processed

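The authors deposited read counts and FPKM per gene for the bulge, read counts for hair germ SMART-seq, and, for hair germ SHERRY2, normalized counts (a signal: counts divided by a size factor) laid out as a DESeq2 result. The deposited FPKM, log2 fold changes, score and p-values of the authors were not used for the results here. For SHERRY2, the submitters' processing notes name STAR and featureCounts, with DESeq2, FastQC and Trim Galore, and the builds mm10 and GRCm38; for SMART-seq they also name fastp, HISAT2, SAMtools, deepTools, Subread and GRCm39. The sources used here give neither the annotation nor the use of strand.

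edgeR 4.0.16 (R 4.3.3) was run on counts, with its quasi-likelihood test after TMM scaling and filterByExpr, cKO against WT, and levels are TMM-scaled CPM computed from the deposited counts. Hair germ SHERRY2 was tested with limma 3.58.1 (trend) on log2(normalized count + 1), keeping genes whose mean reached 1, and its changes are on that scale, which understates those of low genes. In its columns 100% of values were whole reads within 0.01 reads, so edgeR and DESeq2 1.42.0 were also run on recovered reads. Its columns were tied to genotypes by their names. All tests were two-sided, fitted over all genes and adjusted by Benjamini-Hochberg at 0.05. With 2 mice a group they use the spread between those mice, drawn toward the spread of other genes. Differences between datasets came from joint edgeR fits that take 1 spread per gene. The fits were also run on simulated data with known changes. Genes were drawn there independently of one another, so those runs do not cover members that shift together in a library.

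Members, lists and alternatives were chosen with earlier results of these data known. Library values are given for members past the threshold in any dataset, for Mki67, Top2a, Cdk1, Ccnb1, Plk1, Aurkb, Bub1 and Kif23, and for the gene of lowest p and the gene nearest 0 of each role in the bulge; of other lists, for called, highest and lowest genes. Other members named, such as Pttg1, Spc25 and Ube2c, were chosen after their values were seen. Motif letters were searched on both strands of RefSeq promoters of GRCm38.p6.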

Additional observations from a re-analysis of the deposited data

How the results depend on the processing

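In the bulge the median of the 40 genes was positive under every alternative run, at 0.93 to 1.01 where all libraries were kept, while the number called did not hold. It was 2 in the fit as reported, 5 with RLE scaling (1.66% of all genes called higher), 26 with DESeq2 (2.11%), 33 without a filter on low counts (2.7%), and 0 to 37 when 1 library was left out (0.422 to 4.69%), with a median of 0.44 to 1.36. All genes called in the bulge numbered 476 as reported, 1191 with DESeq2, 1549 without a filter, and 218 to 1601 with 1 library left out. Mouse numbers shared by cKO and WT mark no known litter or day, and libraries of the same number deviated together with r = 0.01 in the bulge, -0.21 in hair germ SHERRY2 and 0.23 in SMART-seq. Used as a replicate block all the same, they left 0 members called in the bulge (median 0.93, 1.31% of all genes called higher), 5 genes called in hair germ SHERRY2 and a median of -0.74 in SMART-seq. In hair germ SHERRY2, 3 genes were called as reported, 63 with edgeR on recovered reads, and 0 with DESeq2, without a filter or with 0.1 as pseudocount, and 0 to 105 with 1 library left out. In SMART-seq 30 genes were called without a filter, none of them members, and the members' median ran from -2.57 to 0.44 with 1 library left out. For differences of the genotype effect, leaving out 1 library gave 0 to 18 genes called and a members' median of 0.60 to 3.64 for bulge minus SMART-seq, 32 to 605 genes and 0 to 19 members for bulge minus hair germ SHERRY2, and 0 to 11 genes and a median of -0.76 to 2.15 for hair germ SHERRY2 minus SMART-seq. Hair germ SHERRY2 depth, with as few as 5 reads for a member in WT mouse 2, limits what its values can show. The causes of these changes were not tested.

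Single genes changed sign as follows when 1 library was left out. In the bulge, the log2 change ran from -0.21 to 0.80 for Cdc25c, -0.11 to 0.87 for Cdc20, -0.084 to 0.21 for Mis18a and -0.18 to 0.10 for Numa1. In hair germ SHERRY2 it ran from -1.11 to 0.74 for Mki67, -0.98 to 0.85 for Top2a, -0.46 to 1.81 for Cdk1, -1.37 to 0.25 for Ccnb1, -0.57 to 1.32 for Plk1, -0.92 to 0.21 for Bub1, -0.67 to 1.44 for Aurkb and -0.77 to 0.53 for Kif23. With DESeq2 there, Mki67 was at 0.092, Top2a at 0.20 and Kif23 at 0.015. In SMART-seq it ran from -2.81 to 0.44 for Mki67, -2.92 to 0.63 for Top2a, -2.92 to 0.58 for Cdk1, -2.62 to 0.84 for Ccnb1, -2.05 to 0.45 for Plk1, -2.20 to 0.21 for Bub1, -2.06 to 0.35 for Aurkb, -2.60 to 0.54 for Kif23 and -0.22 to 0.17 for Pttg1.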
